A study of Rattus norvegicus with 743 samples.

Results

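Mibefradil was given to 3 male Han Wistar rats, and their livers gave 3 of the 743 libraries in the series, from 3 of its 680 rats. The rats were chosen by their treatment label and set against the 4 vehicle rats, 4 libraries, with the same study, batch number and vehicle label. The treated rats received mibefradil at 600 mg per kg per day for 4 days in 0.5% methylcellulose in deionized water. The 4 vehicle rats were also male Han Wistar rats and received the methylcellulose solution alone for 4 days. Livers were taken a day after the last dose, and messenger RNA was sequenced with a strand-specific kit. The wider study dosed rats with many pharmaceuticals and read the liver response to each. The labels used here give no age or genetic change. Only one dose, sex and strain were used for mibefradil.

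Mibefradil is a calcium channel blocker that acts on T-type and, less strongly, on L-type channels. It was sold for hypertension and withdrawn because it inhibits cytochrome P450 enzymes of the CYP3A family and so raised the levels of other drugs. The liver answers chemical stress with several well-known gene programmes. Cytokines such as interleukin 6 act through STAT3 to raise the acute phase proteins that hepatocytes secrete into plasma. Misfolded protein in the endoplasmic reticulum (ER) raises ER chaperones through ATF6 and XBP1 and amino acid enzymes through ATF4. SREBP2 raises cholesterol synthesis when sterols in the ER membrane run low, and PPARα drives the oxidation of fatty acids.

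Each rat had 1 library. The mibefradil libraries held 25.3 to 26.4 M estimated counts (M, mega) and the vehicle libraries 20.1 to 27.0 M counts, so depth overlapped between the groups. RNA integrity numbers were 9, 8.8 and 8.6 in mibefradil rats 1, 2 and 3 and 8.5, 8.2, 9 and 8.7 in vehicle rats 1 to 4. All 7 libraries ran on 1 flow cell, but the mibefradil libraries lay in lanes 3 and 4 and the vehicle libraries in lanes 1, 2 and 7, so lane and treatment cannot be told apart. The labelled tissue was borne out by its markers. The 18 hepatocyte genes summed to 162000 to 200000 CPM (each gene's counts scaled to a common library total after TMM adjustment) in the mibefradil rats and 198000 to 220000 in the vehicle rats. Albumin alone was at 98000, 69300 and 114000 CPM under mibefradil and at 127000 to 146000 under vehicle, and its adjusted p was 0.156.

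One mibefradil rat stood apart from the other 2. On the first principal component of log2(CPM + 1), which held 57.4% of the variance, mibefradil rats 1 and 2 lay at -46.7 and -52, rat 3 at -2.3 and the vehicle rats between 22.2 and 28.9. On the second component, with 13.8% of the variance, rat 3 lay at 34.4 and the other 6 rats between -18.1 and 5.8. Results are therefore given rat by rat and with the counts that remain when a rat is left out.

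Of 13061 genes tested, 1906 (14.6%) passed an adjusted p of 0.05 in edgeR's quasi-likelihood test with Benjamini-Hochberg adjustment. These are called changed in what follows. Under mibefradil 1092 (8.36%) were higher and 814 (6.23%) lower. The median log2 fold change over all genes tested was -0.002. The count was 403 without mibefradil rat 1, 794 without rat 2 and 3734 without rat 3. It was 372, 1007, 731 and 695 without vehicle rats 1, 2, 3 and 4, and 573 with RNA integrity as a covariate. Of the 1906 genes, 1832 (96.1%) were also called without rat 3, where they were 49.1% of the calls. Over the 1092 higher genes the median difference from the vehicle mean on the log2(CPM + 1) scale was 0.91, 0.84 and 0.50 in rats 1, 2 and 3, and over the 814 lower genes it was -0.81, -0.81 and -0.58.

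**Figure D1:**
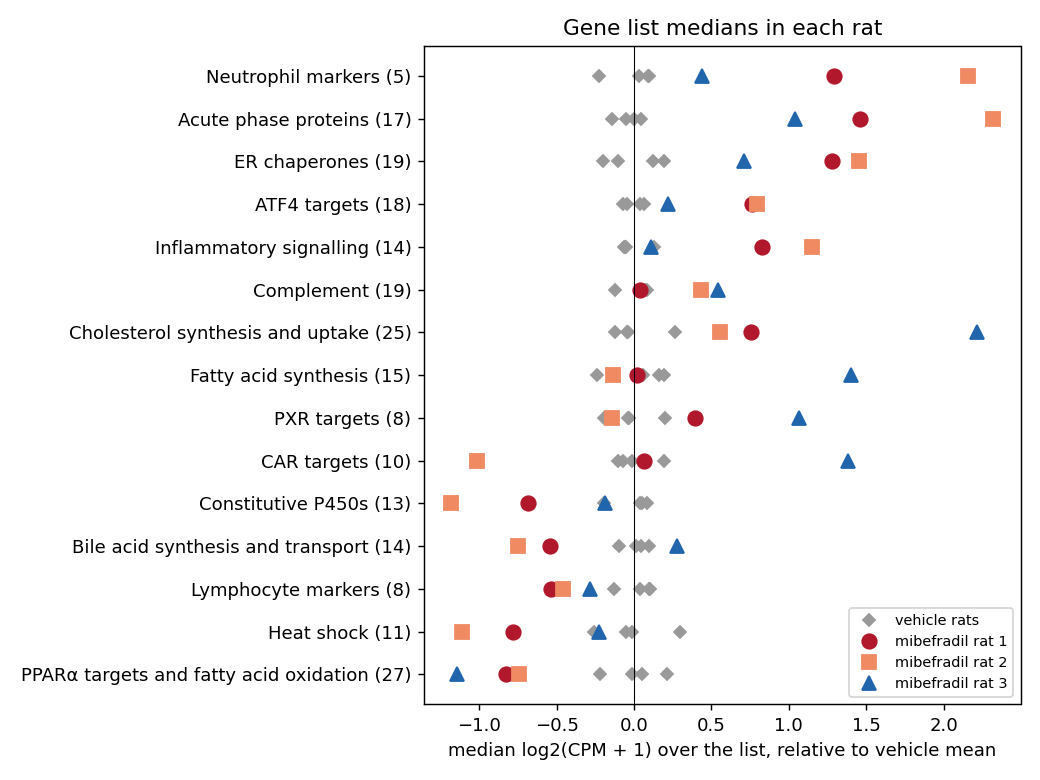
Median over the tested genes of each list (number in brackets) of log2(CPM + 1) relative to the mean of the 4 vehicle rats, for each mibefradil rat (coloured) and each vehicle rat (grey). Mibefradil rat 3 had the highest cholesterol median, 2.21, and the lowest acute phase median of the 3 treated rats, 1.04.

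Transcripts of the acute phase plasma proteins rose. Of 17 tested genes on this list, 10 rose and none fell, against 8.36% of all genes called higher, and the list's median log2 fold change was 1.62 against -0.002 over all genes. A2m encodes alpha-2-macroglobulin, a protease inhibitor that is the classic strong acute phase protein of the rat. It was at 853, 5983 and 405 CPM in mibefradil rats 1, 2 and 3 and at 17.5, 24.8, 44.0 and 28.15 CPM in vehicle rats 1 to 4. Every treated rat lay above every vehicle rat, and rat 2 was highest. The log2 fold change of A2m was 6.40 ± 1.03 (SE), with an adjusted p of 0.0139. Orm1, the plasma carrier alpha-1-acid glycoprotein, was at 3367, 12840 and 1232 CPM under mibefradil and at 497, 415, 364.5 and 456 CPM under vehicle. Lcn2, lipocalin 2, which binds bacterial iron carriers, was at 16.7, 538 and 14.0 CPM under mibefradil and between 1.18 and 2.07 CPM under vehicle. Both genes followed the order of A2m, with rat 2 highest and rat 3 lowest but still above all vehicle rats. Their log2 fold changes were 3.75 ± 0.71 (adjusted p 0.0188) for Orm1 and 6.92 ± 1.49 (adjusted p 0.0282) for Lcn2. Without mibefradil rat 2 they were 2.39 for Orm1 and 3.28 for Lcn2, and DESeq2 gave no adjusted p for Lcn2.

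Haptoglobin (Hp), which binds free haemoglobin, was at 21810, 31650 and 17190 CPM under mibefradil and at 7188, 7214, 7938 and 9640 CPM under vehicle. Hemopexin (Hpx), which binds free haem, was at 19520, 47560 and 11130 CPM against 4315, 5146, 4778 and 4925 CPM. The groups did not overlap for either gene, and the log2 fold changes were 1.56 ± 0.26 for Hp and 2.44 ± 0.44 for Hpx. The 3 fibrinogen chains, the substrate of clotting, rose by 2.18 (Fga), 1.65 (Fgb) and 2.23 (Fgg) on the log2 scale. Lbp, which presents bacterial lipopolysaccharide, rose by 2.07 and Itih4, an inter-alpha-trypsin inhibitor chain, by 1.41. The other 7 listed genes did not pass, among them Crp at a log2 fold change of 0.49 (adjusted p 0.0934) and Hamp, the iron hormone hepcidin, at -1.17 (adjusted p 0.509). Kng1, a kininogen that rats raise in the acute phase, rose by 2.97 on the log2 scale, but rat kininogen genes are near-identical and its reads could be shared between copies. The other 14 coagulation genes tested were not called in edgeR's test. Of 19 complement genes, 4 rose, against 8.36% of all genes called higher. Among them were C1s, C3 and C4b by 0.79 to 1.08 on the log2 scale, and C4b is near-identical to C4a. The complement count was 2, 2 and 4 without mibefradil rats 1, 2 and 3, 0, 1, 1 and 1 without vehicle rats 1 to 4, and 1 with RNA integrity as a covariate. None of 9 negative acute phase proteins was called in edgeR's test, with a median of -0.10, while 5 had an unadjusted p under 0.05 and DESeq2 called 3 higher and 3 lower.

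Leaving out single rats changed this picture in number and not in direction. The list held 9, 10 and 13 higher genes without mibefradil rats 1, 2 and 3 and 3, 9, 7 and 7 without vehicle rats 1 to 4, and 4 with RNA integrity as a covariate. Hp, Itih4 and Lbp were called in all 7 such fits, while Lcn2 was lost when any 1 vehicle rat was left out and A2m when vehicle rat 1 was.

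**Figure D2:**
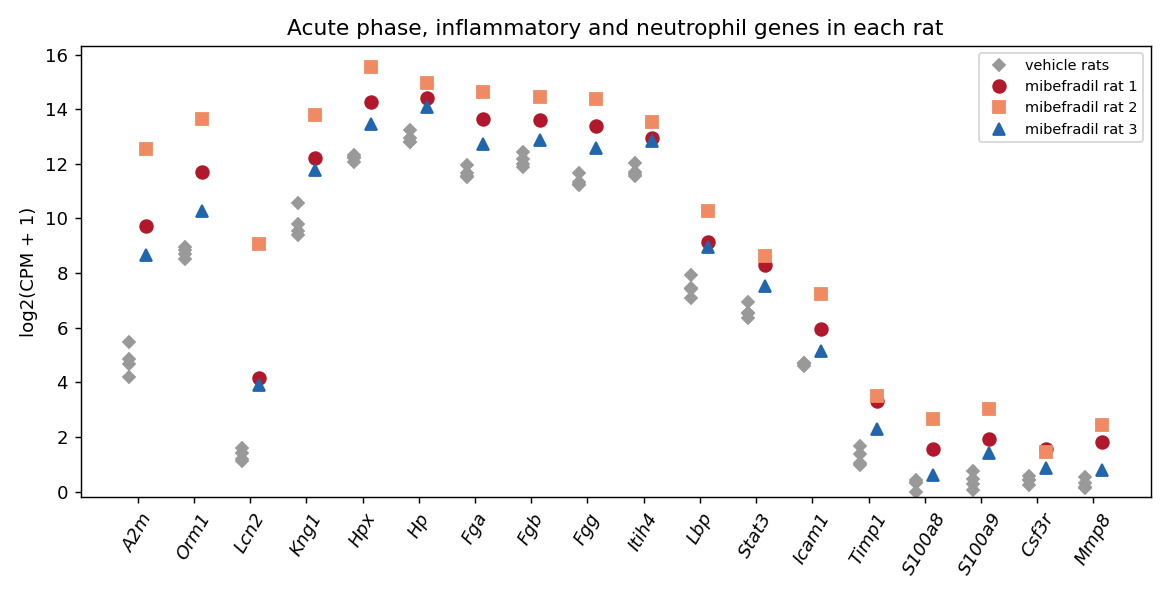
Level of each gene on the log2(CPM + 1) scale in the 4 vehicle rats (grey) and in mibefradil rats 1 to 3 (coloured). For A2m the treated rats lie at 853, 5983 and 405 CPM, above the vehicle rats at 17.5 to 44.0 CPM.

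Genes of the signalling that drives the acute phase were tested as a separate list. Of 14 tested, 3 rose and none fell, against 8.36% of all genes called higher, with a median log2 fold change of 0.83. Stat3, the transcription factor downstream of interleukin 6, was at 311, 395.5 and 183 CPM under mibefradil and at 81.9, 91.2, 92.3 and 124 CPM under vehicle, and rose by 1.61 ± 0.26 (adjusted p 0.0107). Icam1, an adhesion molecule for leukocytes, rose by 1.74 and Il1r1, the interleukin 1 receptor, by 1.02. Cxcl1, a chemokine that attracts neutrophils, was at 30.7, 104 and 2.07 CPM under mibefradil and at 0.93, 5.62, 1.83 and 1.82 CPM under vehicle. Rat 3 lay within the vehicle range for Cxcl1, and the gene did not pass, with an adjusted p of 0.0582. Without rat 3 the list held 9 higher genes. It held 1 without mibefradil rat 1, 2 without rat 2 and 1 or 2 without any single vehicle rat.

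Some neutrophil markers rose from very low levels. Of 12 markers matched, 7 did not pass the filter on low counts and 5 were tested. Those 5 were near 0 CPM under vehicle and passed the filter through the mibefradil rats, so the count among them and their median, 3.45 on the log2 scale, follow in part from the filter. S100a8, S100a9, Mmp8 and Csf3r were called higher. S100a9, a calcium-binding protein abundant in neutrophils, was at 2.86, 7.21 and 1.64 CPM under mibefradil and at 0.21, 0.037, 0.40 and 0.69 CPM under vehicle. The 12 markers summed to 4.45 to 22.3 CPM in the treated rats and to 0.438 to 2.26 CPM in the vehicle rats. Ltf and Prtn3 were at 0 in all 7 rats, and Mpo was at 0.080, 0.38 and 0.16 CPM under mibefradil and at 0.073 to 0.20 CPM under vehicle. In bulk liver, more cells of a type and more RNA per cell cannot be told apart. The part of these cells in the other results was not tested. Without mibefradil rat 3 all 5 tested markers were called, without rat 1 or rat 2 none was, and without vehicle rats 1, 2, 3 and 4 the counts were 1, 3, 0 and 1. With RNA integrity as a covariate it was 0.

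Markers of other cell types were few among the calls. Of 8 tested lymphocyte markers 2 fell, Cd79b of B cells and Prf1 of cytotoxic cells, against 6.23% of all genes called lower. The summed level was 9.01 to 19.1 CPM under mibefradil and 22 to 28.3 CPM under vehicle. All 8 fold changes were below 0, with a median of -1.09, and 1 marker was called lower when any 1 rat other than mibefradil rat 3 was left out. Of 13 macrophage markers Lyz2 rose and Adgre1 fell, and the summed levels overlapped, at 450 to 754 and 541 to 865 CPM. Of 10 endothelial markers Stab1 fell, by 0.72 on the log2 scale. The macrophage and endothelial shares are near the 8.36% and 6.23% of all genes called higher and lower. No cholangiocyte or erythroid marker was called by edgeR or DESeq2, and 0 and 2 had an unadjusted p under 0.05 in edgeR's test. Of 7 pancreas markers matched 1 was tested, Cpb1, a pancreatic protease, which fell by 2.08, and the 7 summed to 0.282 to 0.587 CPM under mibefradil and 0.986 to 1.82 CPM under vehicle, with Prss2 and Pnlip at 0 in all 7 rats. Of 13 stellate cell and fibroblast markers 9 had a fold change below 0 and the median was -0.62, with none called lower in edgeR's test. DESeq2 called 2 lower, and edgeR's test called 2 lower without mibefradil rat 3 and 1 without mibefradil rat 2. The 14 markers matched summed to 371 to 555 CPM under mibefradil and 538 to 822 CPM under vehicle. The 2 that rose were Acta2, smooth muscle actin, and Timp1, an inhibitor of matrix proteases, which hepatocytes can also make. Timp1 was at 8.97, 10.4 and 3.87 CPM under mibefradil and at 2.20, 0.95, 1.59 and 1.08 CPM under vehicle. Timp1 rose by 2.41 ± 0.40 (adjusted p 0.0113).

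Chaperone genes of the ER rose. Of 19 genes 15 rose and none fell, against 8.36% of all genes called higher, with a median log2 fold change of 1.22. Hspa5 encodes BiP, the main chaperone of the ER lumen. It was at 1985, 1788 and 930.0 CPM in mibefradil rats 1, 2 and 3 and at 463, 678, 479 and 661 CPM in vehicle rats 1 to 4. Calr, calreticulin, which folds glycoproteins and binds calcium in the ER, was at 2253, 2239 and 1300.0 CPM against 504, 693, 548 and 702 CPM. Rat 3 was the lowest treated rat for both genes and still lay above the vehicle rats. Hspa5 rose by 1.46 ± 0.29 (adjusted p 0.0178) and Calr by 1.66 ± 0.24 (adjusted p 0.00941) on the log2 scale.

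Creld2, a secreted protein of the same response, was at 113, 111 and 35.7 CPM under mibefradil and at 13.5, 23.2, 13.0 and 20.9 CPM under vehicle. Sdf2l1, a partner of BiP, was at 108, 112 and 47.2 CPM against 17.6, 21.7, 13.3 and 25.6 CPM. For both, rats 1 and 2 were near each other and rat 3 lay between them and the vehicle rats. Their log2 fold changes were 2.29 ± 0.42 for Creld2 and 2.18 ± 0.33 for Sdf2l1. Manf, an ER-resident survival factor, rose by 1.89, Dnajb11, a cochaperone of BiP, by 1.92, Hyou1, a large chaperone, by 1.77, and the disulfide isomerases Pdia3, Pdia4 and Pdia6 by 1.05 to 1.24. The 4 members not called were Herpud1 at 0.88, Xbp1 at 0.74, Sel1l at 0.23 and Edem1 at -0.03. Edem1, Sel1l and Herpud1 act in the removal of misfolded protein rather than in folding, but so does Syvn1, which was called higher. The list held 7, 10 and 17 higher genes without mibefradil rats 1, 2 and 3, 5, 13, 8 and 11 without vehicle rats 1 to 4, and 7 with RNA integrity as a covariate. Calr, Sdf2l1, Manf and Dnajb11 were called in all 7 leave-one-out fits, and Hspa5 was not called without mibefradil rat 1, vehicle rat 1 or vehicle rat 3.

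The promoters of these genes are shown because members of the group moved together and a known element links many of them. The ER stress response element reads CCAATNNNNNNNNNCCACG and is bound by ATF6 with the CCAAT-binding factor NF-Y. It was searched on both strands of RefSeq promoters of the GRCr8 build, 250 bases before to 50 after the start of each gene, matched by symbol. Of the 19 chaperones 16 had a promoter in the table and 7 of these (43.8%) held the element, against 22 of all 33469 promoters (0.0657%). The 7 were Hspa5, Hsp90b1, Calr, Canx, Dnajc3, Creld2 and Xbp1, of which Xbp1 was the only member not called. The other 6 called members with a promoter, among them Hyou1, Sdf2l1 and Dnajb11, held no exact match. The element was already known to link genes of this kind, so its share in the list is not a result of mibefradil. Members were counted by gene and the background by promoter. A match describes these letters and not a binding site in use. Capitals mark the element, which appears as its reverse complement where the match is on the minus strand. Hspa5 is shown from chr3:38452766-38453065 (plus strand), Hsp90b1 from chr7:23012244-23012543 (minus strand), Calr from chr19:40213117-40213416 (plus strand) and Creld2 from chr7:121789134-121789433 (plus strand).

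Hspa5: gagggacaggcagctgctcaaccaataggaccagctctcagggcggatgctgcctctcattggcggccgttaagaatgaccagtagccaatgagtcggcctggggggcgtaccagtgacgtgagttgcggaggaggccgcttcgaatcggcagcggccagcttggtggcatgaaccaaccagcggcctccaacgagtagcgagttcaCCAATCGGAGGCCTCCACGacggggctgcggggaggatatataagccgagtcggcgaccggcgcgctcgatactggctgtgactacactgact

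Hsp90b1: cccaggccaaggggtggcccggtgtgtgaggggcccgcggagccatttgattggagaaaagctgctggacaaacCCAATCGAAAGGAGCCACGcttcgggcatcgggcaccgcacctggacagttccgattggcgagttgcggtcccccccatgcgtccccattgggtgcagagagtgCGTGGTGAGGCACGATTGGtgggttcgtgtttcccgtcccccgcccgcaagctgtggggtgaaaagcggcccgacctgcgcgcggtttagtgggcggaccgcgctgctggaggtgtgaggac

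Calr: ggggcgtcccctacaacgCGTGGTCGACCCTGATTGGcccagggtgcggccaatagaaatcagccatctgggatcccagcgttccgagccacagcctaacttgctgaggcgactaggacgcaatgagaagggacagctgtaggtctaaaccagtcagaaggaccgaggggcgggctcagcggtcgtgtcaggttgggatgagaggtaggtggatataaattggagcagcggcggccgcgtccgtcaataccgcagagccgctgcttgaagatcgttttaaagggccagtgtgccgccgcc

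Creld2: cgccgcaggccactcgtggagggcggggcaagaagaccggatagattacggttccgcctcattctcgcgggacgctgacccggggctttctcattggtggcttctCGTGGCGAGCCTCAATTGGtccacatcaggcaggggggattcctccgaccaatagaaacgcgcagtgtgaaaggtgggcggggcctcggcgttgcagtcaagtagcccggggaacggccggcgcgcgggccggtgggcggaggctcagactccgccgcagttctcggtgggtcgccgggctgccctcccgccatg

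The promoter of Hsp90b1, the ER paralogue of HSP90, held 2 elements, and the gene rose by 0.93 ± 0.19 (adjusted p 0.0188) on the log2 scale. The other 3 promoters held 1 each, at -43 from the gene start in Hspa5, -232 in Calr and -145 in Creld2. Creld2 with 1 element rose by 2.29, and a relation between fold change and the number of elements was not tested.

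**Figure D3:**
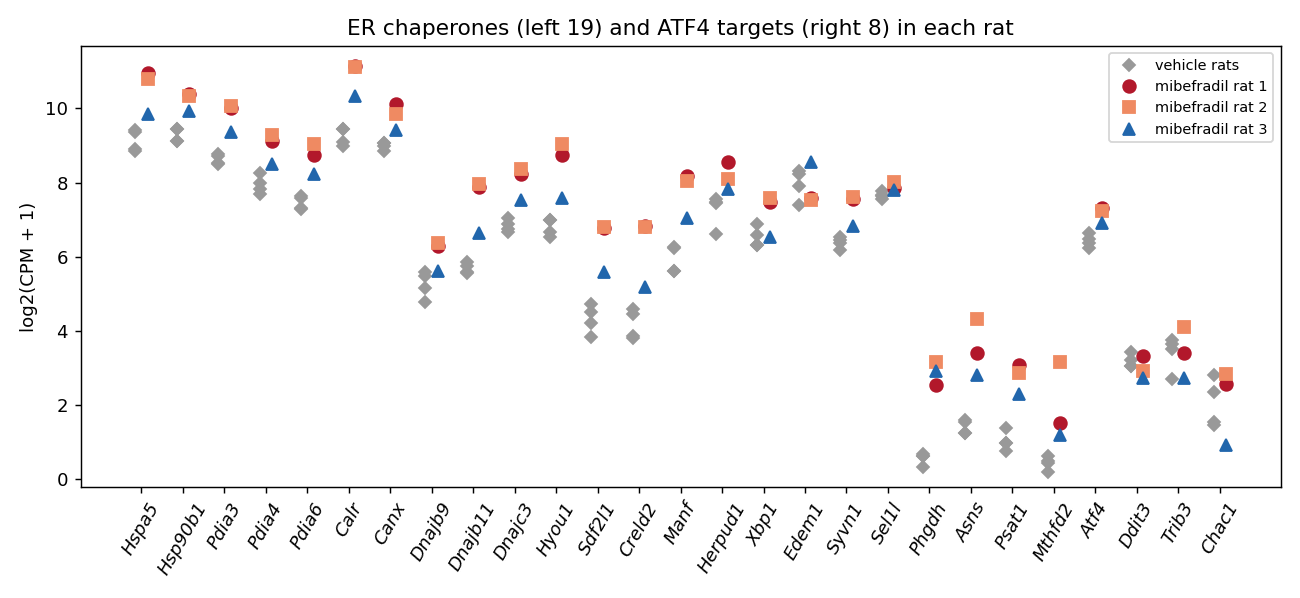
Level on the log2(CPM + 1) scale of the 19 ER chaperone genes and of 8 ATF4 targets in the 4 vehicle rats (grey) and mibefradil rats 1 to 3 (coloured). For Sdf2l1 the treated rats lie at 108, 112 and 47.2 CPM, above the vehicle rats at 13.3 to 25.6 CPM, while Ddit3 overlaps between the groups.

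Targets of ATF4, the transcription factor of the integrated stress response, rose in part. Of 18 tested 8 rose and none fell, against 8.36% of all genes called higher, with a median of 0.69. Those that rose include the serine and one-carbon enzymes Phgdh, Psat1, Mthfd2 and Shmt2, the asparagine synthetase Asns and the amino acid transporter chain Slc3a2. Phgdh, the first enzyme of serine synthesis, was at 4.79, 8.05 and 6.64 CPM under mibefradil and at 0.25, 0.55, 0.60 and 0.54 CPM under vehicle. The treated rats were close to each other, rat 3 included. Phgdh rose by 3.73 ± 0.31 (adjusted p 0.00195) and Asns by 2.78 ± 0.38 (adjusted p 0.00911), and both were called in all 7 leave-one-out fits, as was Psat1 at 2.47 ± 0.33. The targets tied to cell death and feedback were not called. Ddit3, which encodes CHOP, had a log2 fold change of -0.20 (adjusted p 0.495), Trib3 of 0.07, Chac1 of 0.21 and Atf3 of -0.06. Atf4 itself rose by 0.73 ± 0.15. The list held 4, 6 and 9 higher genes without mibefradil rats 1, 2 and 3, 4, 6, 4 and 5 without vehicle rats 1 to 4, and 4 with RNA integrity as a covariate.

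Heat shock genes of the cytosol and mitochondria, tested as 1 list, did not rise with the ER chaperones. Of 11 tested none rose and 4 fell, against 6.23% of all genes called lower, with a median of -0.63. The 4 were Hsph1, Hsp90ab1, Dnaja1 and the mitochondrial chaperonin Hspd1, with falls of 0.56 to 1.08 on the log2 scale. Hsp90ab1, the constitutive cytosolic HSP90, was at 539, 383 and 743 CPM under mibefradil and at 946, 1074, 939 and 974.5 CPM under vehicle. The groups did not overlap, and rat 3 was nearest the vehicle rats. Without mibefradil rat 3 there were 8 lower genes, and without any of the other 6 rats, or with RNA integrity as a covariate, there were 0.

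Cholesterol synthesis and uptake genes rose, and most strongly in rat 3. Of 25 tested 12 rose and none fell, against 8.36% of all genes called higher. All 25 fold changes were above 0, and the median was 1.44 on the log2 scale. Lss, lanosterol synthase, was at 109, 77.2 and 208 CPM in mibefradil rats 1, 2 and 3 and at 23.0, 17.4, 17.5 and 19.1 CPM in vehicle rats 1 to 4. Sqle, squalene epoxidase, was at 107, 94.3 and 220 CPM against 25.9, 16.2, 16.7 and 12.2 CPM. Every treated rat lay above every vehicle rat for both genes, with rat 3 highest. The log2 fold changes were 2.77 ± 0.32 (adjusted p 0.00628) for Lss and 2.98 ± 0.36 (adjusted p 0.00734) for Sqle. Srebf2, which encodes SREBP2, rose by 1.30 ± 0.17. Other genes that rose included Mvd, Msmo1, Idi1, Fdps and Fdft1, enzymes of the pathway from mevalonate to cholesterol, by 1.63 to 2.85. Among those not called were Hmgcs1 at 1.82 (adjusted p 0.0545), Cyp51 at 1.45 and Insig1, the feedback protein of the pathway, at 0.92.

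The median over the list relative to the vehicle mean was 0.75, 0.56 and 2.21 in rats 1, 2 and 3 on the log2(CPM + 1) scale. Without mibefradil rat 3 the list held 15 higher genes and 2 lower ones, and the log2 fold change of Msmo1 was 1.69 in place of 2.79. The list held 8 and 13 higher genes without mibefradil rats 1 and 2 and 5, 8, 5 and 5 without vehicle rats 1 to 4. Sqle, Lss, Fdps and Srebf2 were called in all 7 leave-one-out fits. The sterol response element TCACNCCAC was found in none of the 17 members with a promoter in the table and in 374 of all 33469 promoters (1.12%), which says only that these exact letters are not in those windows.

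Of 15 fatty acid synthesis genes tested 3 rose, Fasn, Pnpla3 and Me1, and none fell, against 8.36% of all genes called higher. Fasn, fatty acid synthase, was at 111, 89.5 and 392.5 CPM under mibefradil and at 51.0, 31.4, 38.7 and 25.7 CPM under vehicle. It rose by 2.43 ± 0.54 (adjusted p 0.0293). The list median relative to vehicle was 0.02, -0.13 and 1.40 in rats 1, 2 and 3. Without rat 3, 2 members were higher and 5 lower. Without mibefradil rats 1 and 2 the counts of higher genes were 1 and 3, and without any single vehicle rat they were 0. Scd, stearoyl-CoA desaturase, went the other way by rat, at 504, 288 and 61.1 CPM under mibefradil against 102, 62.2, 121 and 15.1 CPM, and was not called.

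Genes of fatty acid oxidation fell. Of 27 PPARα targets and oxidation genes tested 12 fell and none rose, against 6.23% of all genes called lower, and all 27 fold changes were below 0 with a median of -0.93. Decr2, an enzyme of peroxisomal oxidation, was at 65.7, 52.9 and 121 CPM under mibefradil and at 283, 327, 268 and 252 CPM under vehicle. Pex11a, which drives peroxisome division, was at 7.32, 6.54 and 6.95 CPM against 78.3, 80.6, 74.7 and 36.9 CPM. The 3 treated rats were near each other for Pex11a, rat 3 included, and all lay below the vehicle rats. Decr2 fell by 1.82 ± 0.29 (adjusted p 0.0101) and Pex11a by 3.28 ± 0.29 (adjusted p 0.00257) on the log2 scale. Among mitochondrial genes Cpt2, which reloads fatty acids onto coenzyme A, fell by 1.04, Acadm by 0.78, Hadhb by 0.87 and Decr1 by 1.12, and Pdk4, which spares glucose, fell by 1.53. Ehhadh, a peroxisomal enzyme, was at 28.0, 19.6 and 271 CPM against 941 to 1716 CPM, with an adjusted p of 0.0541. Cpt1a, the entry step of mitochondrial oxidation, had a log2 fold change of -0.44 (adjusted p 0.209). Acot1, a thioesterase near-identical to Acot2, had a log2 fold change of -4.32 from 0.68 to 8.73 CPM under vehicle, and was called in 1 of 7 leave-one-out fits.

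This list held 5, 10 and 13 lower genes without mibefradil rats 1, 2 and 3, 8, 9, 7 and 9 without vehicle rats 1 to 4, and 7 with RNA integrity as a covariate. Pex11a, Vnn1, Decr2 and Cpt2 were called in all 7 leave-one-out fits. Of 14 lipid droplet genes 2 fell as well, against 6.23% of all genes called lower. They were G0s2, an inhibitor of lipolysis, by 1.17 ± 0.14 and Plin5 by 0.85 ± 0.19 on the log2 scale.

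**Figure D4:**
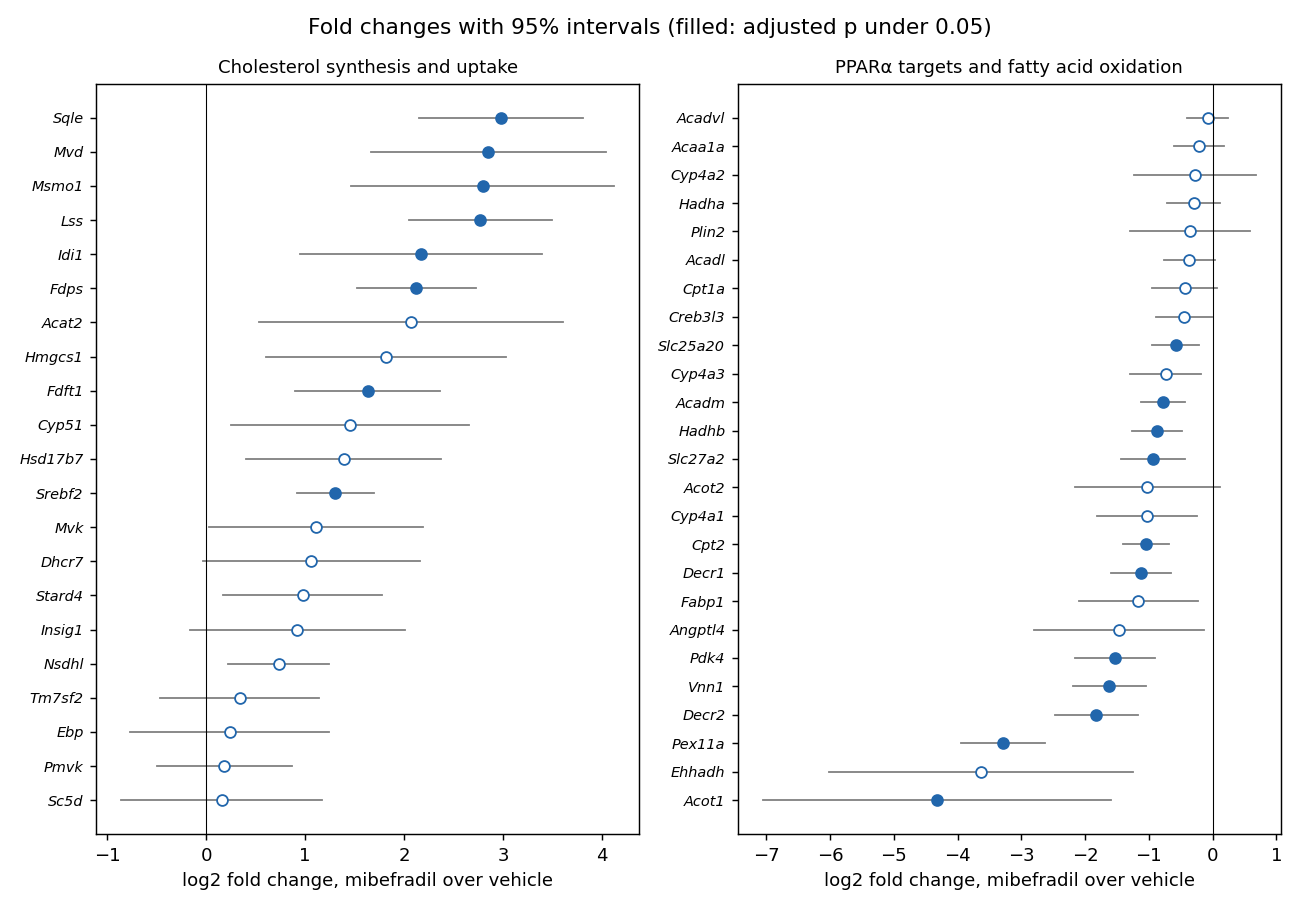
Log2 fold change of mibefradil over vehicle (3 against 4 rats) with its 95% confidence interval for 21 of the 25 tested cholesterol genes (left) and 25 of the 27 tested PPARα or fatty acid oxidation genes (right), with filled points for an adjusted p under 0.05. All points on the left lie above 0 and all on the right below 0.

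Few drug-metabolising enzymes passed the test, and for some of them the mibefradil rats lay on opposite sides of the vehicle rats. None of 8 PXR targets was called in edgeR's test, where 4 had an unadjusted p under 0.05, while DESeq2 called 4 higher. Of 10 CAR targets 1 rose, the stress gene Gadd45b, and of 13 constitutive P450s 1 rose, Cyp2c22. Both shares are near the 8.36% of all genes called higher. Of the 13 constitutive P450s 12 had a fold change below 0, with a median of -0.69. None of them was called lower in edgeR's test, while DESeq2 called 2 lower. Gadd45b was at 68.9, 24.1 and 34.85 CPM under mibefradil and at 5.54, 2.995, 3.30 and 10.4 CPM under vehicle. Cyp2b1, a classic CAR target, was at 12.9, 2.14 and 290 CPM in mibefradil rats 1, 2 and 3 and at 259, 269, 258.5 and 240 CPM in vehicle rats 1 to 4. Rats 1 and 2 lay below every vehicle rat and rat 3 above. Cyp2b2, a near-identical gene whose reads can be shared with Cyp2b1, was at 47.0, 12.3 and 1105 CPM against 64.6, 148, 234 and 219 CPM. Cyp2c11, the main male P450, was at 58.6, 19.75 and 713 CPM against 702.5 to 1306 CPM, with rat 3 inside the vehicle range. Their adjusted p-values were 0.517, 0.546 and 0.271. Cyp3a23/3a1, a PXR target of the CYP3A family that mibefradil inhibits, was at 10580, 3012 and 8794 CPM against 3280 to 3950 CPM. Rats 1 and 3 lay above the vehicle rats and rat 2 below, and the adjusted p was 0.0817.

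Rat 2 thus had the lowest CAR list median, -1.01, and rat 3 the highest, 1.38, relative to vehicle on the log2(CPM + 1) scale. The medians of the constitutive P450s were -0.68, -1.18 and -0.19. Without rat 3, 8 of the constitutive P450s were called lower. None of 14 bile acid genes was called in edgeR's test, where 3 had an unadjusted p under 0.05. DESeq2 called 1 higher and 2 lower, and 1 was higher and 6 lower in edgeR's test without rat 3. Cyp7a1, which turns cholesterol into bile acid precursors, was at 15.4, 15.2 and 602 CPM under mibefradil and at 95.8, 39.3, 24.7 and 119.5 CPM under vehicle. Nr0b2, which encodes the repressor SHP, was at 1.17, 1.05 and 12.7 CPM against 37.4 to 77.0 CPM, all 3 treated rats below the vehicle rats, with an adjusted p of 0.0529.

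Several clock genes changed. Nr1d1, which encodes the repressor REV-ERBα, was at 46.8, 31.1 and 68.9 CPM under mibefradil and at 3.47, 3.25, 6.60 and 3.10 CPM under vehicle. Cry1, a core repressor of the clock, was at 6.76, 7.25 and 7.50 CPM against 43.0, 39.4, 34.0 and 43.8 CPM. The 3 treated rats were close to each other and far from the vehicle rats for Cry1. Cry1 fell by 2.48 ± 0.13 (adjusted p 0.000148) and Nr1d1 rose by 3.57 ± 0.36 (adjusted p 0.00466). Nr1d2 rose by 1.63, Ciart by 3.50 and Per2 fell by 1.45, so 3 of 15 clock genes rose and 2 fell. Over all genes 8.36% were called higher and 6.23% lower. Cry1 and Nr1d1 were called in all 7 leave-one-out fits, Per2 in 2 and Ciart in 1, and 2 to 4 clock genes were higher and 1 to 3 lower in those fits. The labels used here give no hour of day for each liver, and a difference in sampling hour between groups was not tested.

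Hmox1, the stress-induced haem oxygenase, was at 73.3, 98.0 and 69.2 CPM under mibefradil and at 19.8, 24.9, 22.0 and 35.7 CPM under vehicle, and rose by 1.65 ± 0.22 (adjusted p 0.00786). Nqo1, a quinone reductase, rose by 2.38. Hmox1, Nqo1, Gsr and Me1 were among the 5 of 15 NRF2 targets that rose, against 8.36% of all genes called higher. Gclc, Gclm, Srxn1 and Txnrd1, central targets of NRF2, were not called, with log2 fold changes of -0.68 to 0.20. Cyp1a1, the classic AhR target, was at 3.70, 3.44 and 5.78 CPM against 0 to 1.15 CPM and rose by 2.88 ± 0.70, and with Nqo1 made 2 of 6 AhR targets that rose. Both genes were called in 3 of 7 leave-one-out fits, and the AhR count was 0 without mibefradil rat 1, without vehicle rat 1 and with no count filter, and 1 with RNA integrity as a covariate. The NRF2 list held 2, 4 and 5 higher genes without mibefradil rats 1, 2 and 3 and 1, 3, 2 and 1 without vehicle rats 1 to 4. Of 12 immediate early genes tested 2 fell and none rose, against 6.23% of all genes called lower, with a median of -0.16. Of the 12 fold changes 5 were above 0 and 7 below, the highest at 1.80. Jun fell by 1.87 ± 0.22 and Dusp1 by 1.71 ± 0.25, and both were called in all 7 leave-one-out fits. DESeq2 called 1 member higher, and edgeR's test called 3 higher without mibefradil rat 3.

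Genes of calcium channels and calcium handling, the target class of the drug, gave no call in edgeR's test. Of 18 tested, 4 had an unadjusted p under 0.05, DESeq2 called 1 higher and 3 lower, and the median was -0.16. With mibefradil rat 3 left out, 2 were higher and 5 lower. Cacna1g, which encodes a T-type channel, was at 0.68, 0.34 and 0.51 CPM under mibefradil and at 0.13, 0.37, 0.44 and 0.64 CPM under vehicle, with overlapping groups. Of 33 lysosome genes 2 rose, Cd63 and Sqstm1, and 3 fell, Glb1, Hexa and Pla2g15, with a median of 0.09. These shares are near the 8.36% and 6.23% of all genes called higher and lower. The lysosome counts without mibefradil rat 3 were 6 higher and 7 lower, and without rat 1 both were 0. Of 10 growth hormone and IGF genes only Igf1 fell, a share near the 6.23% of all genes called lower. Its fall was 1.01 ± 0.21 on the log2 scale. Igf1 was called in 3 of 7 leave-one-out fits, and in the RefSeq table its log2 fold change was -0.58 with an adjusted p of 0.165. Of 27 proliferation genes 2 fell, Cenpf and Nusap1, a share near the 6.23% of all genes called lower, and none did without mibefradil rat 1 or vehicle rat 1, 3 or 4. Hal, histidine ammonia-lyase, fell by 1.68 ± 0.24 and Gls2, liver glutaminase, by 1.20 ± 0.18. They were the 2 called of 17 urea cycle and amino acid genes, against 6.23% of all genes called lower.

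Outside the lists, the genes with the largest changes were named by a rule that also asked for no overlap between the groups, so their separation is not a result. Gucy2c, the receptor for the gut peptide guanylin, was at 8.53, 24.5 and 1.09 CPM under mibefradil and at 0, 0.037, 0.16 and 0.15 CPM under vehicle, a log2 fold change of 7.01 ± 1.25 (adjusted p 0.0182). It was not called without mibefradil rat 1 or vehicle rat 1, 3 or 4. Sarm1, an enzyme that breaks down NAD, was at 80.4, 84.1 and 9.18 CPM against 0.62 to 2.07 CPM and rose by 5.37 ± 0.83. Sarm1, Gnat1 and Pla1a were called in all 7 leave-one-out fits, while Serpina7 and Wfdc21 were lost without mibefradil rat 1 or vehicle rat 1. Rats 1 and 2 were high and rat 3 lay between them and the vehicle rats for Gucy2c and Sarm1. Serpina7, thyroxine-binding globulin, rose by 4.45, Gnat1, a transducin subunit, by 4.28, and Pla1a, a phospholipase, by 3.66 on the log2 scale. Slc13a5, a citrate transporter, was at 9.89, 125 and 3.44 CPM against 1.67 to 2.55 CPM. Its log2 fold change of 4.48 thus rests mostly on rat 2 and was 1.67 in the lowest leave-one-out fit. Slc13a5 was called in 1 of 7 leave-one-out fits. It was not called with no count filter, in the RefSeq table or with RNA integrity as a covariate. Wfdc21 also rose, at 56.8, 68.1 and 16.1 CPM against 1.87 to 7.12 CPM.

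Among the largest decreases were genes of several roles. Krt23, a keratin, was at 0.16, 0.34 and 0.078 CPM under mibefradil and at 8.54, 5.00, 6.56 and 4.04 CPM under vehicle, and fell by 4.96 ± 0.47 (adjusted p 0.00306). Slc13a2, a transporter of dicarboxylates, was at 0.76, 2.01 and 0.59 CPM against 23.8, 15.6, 12.7 and 18.2 CPM. Ces1d, an abundant carboxylesterase of a family of similar genes, was at 182, 131 and 302 CPM against 1209, 1024, 1073 and 1078 CPM and fell by 2.42 ± 0.29. Each of these 3 genes was called in all 7 leave-one-out fits, as were Mmd2, Arhgef37, Nim1k, a kinase related to AMPK, Lonrf3 and Pdxp, a phosphatase of vitamin B6. Adcy10, soluble adenylyl cyclase, was lost without mibefradil rat 1. Stac3, an adaptor of muscle calcium channels, was below 1 CPM in the treated rats, at 1.91 CPM in vehicle rat 3 and at 12.9 to 17.3 CPM in the other 3 vehicle rats, and was called in 4 of 7 leave-one-out fits.

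Nifedipine, amiodarone and perhexiline maleate were given to male Han Wistar rats at the same dose, in the same vehicle and for the same 4 days. Nifedipine is a dihydropyridine blocker of L-type calcium channels, amiodarone an antiarrhythmic drug and perhexiline an antianginal drug. Each had 4 treated and 4 vehicle rats of its own study, with 15.5 to 25.5 M counts per rat except for the nifedipine vehicle rats, which had 2 libraries each and 31.3 to 35.4 M counts. Studies and batch numbers differed from those of mibefradil, so each drug was set against its own vehicle and the effects were then compared. The 3 comparisons share the 7 rats of the mibefradil study, and p-values are adjusted over genes within each comparison. The mibefradil effect differed from that of nifedipine for 1104 of 13505 genes (8.17%), from amiodarone for 1322 of 13117 (10.1%) and from perhexiline for 8 of 13299 (0.0602%). Without mibefradil rat 3 these counts were 2787, 3077 and 524, and over the other leave-one-out fits they ran from 484 to 1209, from 738 to 1149 and from 1 to 98. For perhexiline the highest, 98, came without perhexiline rat 2. Few calls against perhexiline do not show that the 2 drugs act alike.

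Many acute phase and ER chaperone genes had larger effects under mibefradil than under nifedipine or amiodarone. Of 17 acute phase genes 10 had a larger effect under mibefradil than under nifedipine and 9 than under amiodarone, and none a smaller one. Over all genes tested, 653 of 13505 had a higher effect under mibefradil than under nifedipine and 794 of 13117 than under amiodarone. The list medians were 1.64 for mibefradil and -0.05 for nifedipine in that fit, and 1.65 and 0.05 against amiodarone. A2m had a log2 fold change of -0.59 ± 0.72 under nifedipine and -1.21 ± 0.80 under amiodarone, and the difference from mibefradil was 7.01 ± 1.12 (adjusted p 0.0063) and 7.64 ± 1.24 (adjusted p 0.00339). Of 19 ER chaperones 12 and 14 had a larger effect under mibefradil. Calr differed by 1.49 ± 0.26 from nifedipine (adjusted p 0.00714) and by 1.91 ± 0.29 from amiodarone (adjusted p 0.002). Leaving out 1 rat gave 9 to 14 and 8 to 13 acute phase genes, and 6 to 16 and 13 to 16 chaperones.

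Against perhexiline, none of 17 acute phase genes and none of 19 chaperones differed by edgeR or DESeq2, and 1 of each had an unadjusted p under 0.05 in edgeR's test, with list medians of 1.63 and 0.83 for the acute phase and 1.23 and 0.87 for the chaperones under mibefradil and perhexiline. A2m had a log2 fold change of 5.32 ± 1.60 under perhexiline and Hspa5 of 1.36 ± 0.29, and the differences from mibefradil were 1.09 ± 1.96 and 0.11 ± 0.41. The spread behind the A2m difference is wide enough to hold a large difference in either direction.

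For cholesterol genes no difference from nifedipine or amiodarone passed edgeR's test. Of 25, 1 and 2 had an unadjusted p under 0.05, and DESeq2 called 1 and 0, with medians of 1.45 for mibefradil, 0.98 for nifedipine and 1.48 for amiodarone. Sqle had log2 fold changes of 2.03 ± 0.66 under nifedipine and 2.36 ± 0.31 under amiodarone. Without mibefradil rat 3, 8 genes had a smaller effect under mibefradil than under amiodarone and still none differed from nifedipine. Perhexiline had a median of 0.22, and Lss differed, with a log2 fold change of 0.41 ± 0.24 under perhexiline and a difference of 2.37 ± 0.35 (adjusted p 0.0204). Against perhexiline 17 of the 25 cholesterol genes had an unadjusted p under 0.05, and DESeq2 called 4 higher under mibefradil. Tmem97, a sterol-linked membrane protein also known as the sigma-2 receptor, differed by 1.60 ± 0.19 (adjusted p 0.00349) and was called in all 15 leave-one-out fits of that comparison, while Lss was called in 8.

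Fatty acid oxidation genes had medians on opposite sides of 0 under mibefradil and amiodarone. Of 27 genes 19 had a lower effect under mibefradil, with medians of -0.92 and 0.51, and 18 to 20 did in the leave-one-out fits. Over all genes tested, 528 of 13117 had a lower effect under mibefradil than under amiodarone. Pex11a fell by 3.27 under mibefradil in that fit and had a log2 fold change of 1.98 ± 0.23 under amiodarone, a difference of -5.24 ± 0.36 (adjusted p 1.85e-06). Acot1 differed by -10.13 ± 1.29 and Ehhadh by -5.17 ± 0.95. Nifedipine had a median of -0.82, and 3 of 27 genes had a lower effect under mibefradil, against 451 of all 13505 genes. None differed from perhexiline in edgeR's test, where 9 had an unadjusted p under 0.05 and whose median was -0.22. DESeq2 called 5 lower under mibefradil, and edgeR 4 without mibefradil rat 3.

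Of 10 CAR targets 2 had a lower effect under mibefradil than under nifedipine, against 451 of all 13505 genes. Cyp2b1 had a log2 fold change of 4.78 ± 1.06 under nifedipine, a difference of -6.10 ± 1.49 (adjusted p 0.0284) that was called in 11 of 15 leave-one-out fits. Abcc3, an efflux pump of conjugates, had a log2 fold change of 5.31 ± 0.71 under nifedipine and 0.38 under mibefradil, and differed by -4.93 ± 0.96 (adjusted p 0.013). Cyp4a8 and Slc13a2 also had lower effects under mibefradil than under nifedipine. Krt23, Sarm1 and Serpina7 were among the largest differences from both nifedipine and amiodarone. Cry1 had log2 fold changes of 0.34 ± 0.21 under nifedipine and 0.30 ± 0.08 under amiodarone, and differed from mibefradil by -2.80 ± 0.32 (adjusted p 0.0049) and -2.76 ± 0.12 (adjusted p 1.02e-08).

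**Figure D5:**
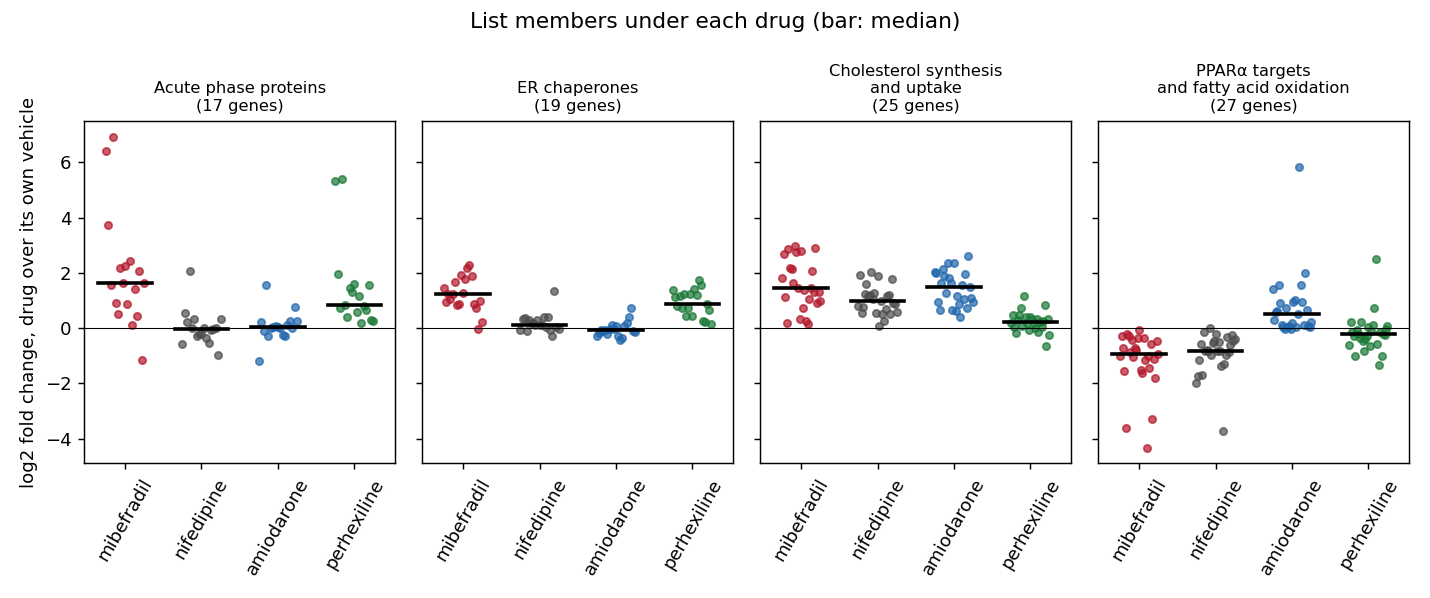
Log2 fold change of each list member over the drug's own vehicle for mibefradil, nifedipine, amiodarone and perhexiline, with a bar at the median. Acute phase medians are near 0 for nifedipine and amiodarone, and the amiodarone median of the fatty acid oxidation genes, 0.51, lies above 0 while the mibefradil median lies below.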

How the data were processed

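The authors deposited estimated counts (expected counts) per Ensembl gene and per RefSeq gene, which they made by assigning the reads of TruSeq Stranded mRNA libraries to genes, per the labels' protocols. The genome build was Rnor_6.0, per the submitters' processing notes. The aligner and quantifier are not given in the sources used here. A deposited sample sheet gave flow cells and lanes. The deposited count values were whole for 87.52% of non-zero entries. Libraries of 1 rat were summed and rounded. The locus row of Ugt1a, equal to the sum of its 10 transcript rows, was dropped, and 661 columns of other groups in the count table were not used.

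Genes passing filterByExpr were fitted with edgeR 4.0.16 (TMM scaling, robust quasi-likelihood F test, 2-sided) in R 4.3.3, only the groups compared entering each fit, with Benjamini-Hochberg adjustment over all genes tested and a threshold of 0.05. Drug differences were interaction terms over 4 groups. Errors are standard errors (SE), computed as the absolute log2 fold change divided by the square root of the test's F statistic. They reflect the spread between rats, and the 95% intervals were built from them. The comparison with vehicle had 3 mibefradil and 4 vehicle rats, and each drug difference added 4 treated and 4 vehicle rats. CPM, counts per mega-count of library, use TMM-scaled totals. The scripts were tested on simulated data. Alternatives were DESeq2 1.42.0, RLE size factors, no filter, the RefSeq table, RNA integrity as a covariate, a minimum log2 fold change of 1, 1 fit over the batch, and each rat left out.

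The 43 gene lists matched 579 of 612 entries. Named genes were list members, the 12 largest increases and decreases with a symbol, an adjusted p under 0.05, a mean of at least 5 CPM in the higher group and no overlap of groups, and the 5 largest differences in each direction per drug with at least 5 CPM. Members and lists were chosen with earlier results of these data known. Coordinates are given only for RefSeq promoters on GRCr8, a build other than that of the counts. Values of some list members are not reported here, while list counts and medians include them.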

Additional observations from a re-analysis of the deposited data

Results flagged for a closer look

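In the 4 vehicle rats, 88 named genes were searched for 1 rat far from the other 3, and 5 were flagged because the gap to the nearest rat took up more of the group's range than Dixon's critical value at the 95% level. Chance flags about 1 group in 20. Phgdh was at 0.2538 CPM in vehicle rat 1 against 0.54 to 0.60 CPM in the others. Pex11a was at 36.86 CPM in vehicle rat 4 against 74.7 to 80.6 CPM. Nr1d1 was at 6.603 CPM and Per2 at 26.05 CPM in vehicle rat 3, against 3.10 to 3.47 CPM and 52.95 to 57.5 CPM in the other 3. Sqstm1 was at 382.7 CPM in vehicle rat 2 against 278 to 287 CPM. The mibefradil group of 3 rats was not searched this way. Phgdh, Pex11a and Nr1d1 stayed called without any single vehicle rat. Per2 stayed called without its flagged vehicle rat 3 and was lost without vehicle rat 1, 2 or 4. Sqstm1 stayed called without its flagged vehicle rat 2 and was lost without vehicle rat 1, 3 or 4.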

How the results depend on the processing

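The count of 1906 changed genes was 2862 in DESeq2, 573 with RNA integrity as a covariate, 3965 in 1 fit over all groups of the batch and 744 at a log2 fold change of at least 1, and ran from 372 to 3734 when 1 rat was left out. Against nifedipine the count was 1789 in DESeq2 and 508 at a log2 fold change of at least 1, and ran from 484 to 2787 with 1 rat left out. Against amiodarone it was 637 at that fold change and ran from 738 to 3077. Against perhexiline it was 139 in DESeq2, 1 with RNA integrity and from 1 to 524 with 1 rat left out. Other size factors, no filter and the RefSeq table kept all 4 counts within 1.5 times. Of 88 named genes none changed direction under any alternative in which it was tested, and 35 stayed called in all of them. The cause of these shifts was not tested, except that a minimum fold change can only remove calls. No paired analysis was possible because replicate numbers were given in accession order and pair no rats.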
